A study of Mus musculus with 12 samples.

Results

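The lysyl oxidase family was examined across all 4 groups of the series. The family holds 5 genes, Lox, Loxl1, Loxl2, Loxl3 and Loxl4, taken as a fixed list of symbols and matched through the probe annotation. Every probe set listed with exactly 1 of these symbols was kept, which gave 9 probe sets among the 28898 that carry 1 symbol, or 5 of 17097 genes. Lox was read by 3 probe sets, Loxl1 and Loxl4 by 2 each, and Loxl2 and Loxl3 by 1 each.

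RNA levels were read on Affymetrix arrays from mouse embryonic fibroblasts (MEFs), in primary culture, of a C57Bl/6 x 129Sv F1 background, taken at e14.5 and used at passage 4. Both genotypes received Cre adenovirus: the CBP/p300 null cells (double knockout, dKO) started with conditional alleles of both genes on all copies, and the wild-type (WT) cells had none. CBP and p300 are related acetyltransferases that act as coactivators of many transcription factors. Dipyridyl (DP), an iron chelator that stabilises hypoxia-inducible factor (HIF), was given at 100 µM for 3 h, against its vehicle ethanol.

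The groups were dKO under DP, dKO in ethanol, WT under DP and WT in ethanol, with 3 arrays each. The virus was given to all cells for 16 h at 100 infectious units per cell, followed by 48 h in 3% oxygen and 24 h in normoxia before treatment, so the WT cells share the virus and the low-oxygen culture. The replicates were separate MEF lines, dKO lines 1, 5 and 6 and WT lines 3, 4 and 5, and each line gave 1 array per treatment. A WT and a dKO line of the same number are not a pair.

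Crebbp, the gene of CBP, was lower in dKO cells by -0.85 ± 0.16 log2 in ethanol and -0.76 ± 0.16 under DP (SE, limma adjusted p = 0.00121 and 0.0026), and the sources used here do not say whether its probe set falls inside the excised exons. Ep300 was not analysed here. Xist lay at 3.94 to 5.32 log2 on dKO and 10.3 to 10.7 on WT arrays, and the Y-linked Eif2s3y at 7.08 to 8.93 on dKO and 2.49 to 3.29 on WT arrays, so sex and genotype cannot be told apart. The ethanol arrays of dKO line 1 and WT line 5 had the lowest mean correlations to their own groups, 0.9856 and 0.9886. They are called the 2 that stood apart. The ethanol array of dKO line 5 was nearly as low, at 0.9891, and was kept. Results for the family without the 2 that stood apart are given below. The median probe set stood at 3.87 to 3.98 log2 on the 12 arrays. Background was taken as each array's 95th percentile of its 43 blank controls, which ranged from 3.32 to 3.88.

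Lysyl oxidases are secreted copper-dependent amine oxidases. They turn lysines of collagens and elastin into aldehydes, from which the covalent cross-links of fibres form, and fibroblasts are a main source. Lox and Loxl1 carry a propeptide that Bmp1-type proteinases remove, whereas Loxl2, Loxl3 and Loxl4 carry scavenger receptor cysteine-rich domains. In human cells LOX and LOXL2 are known as HIF target genes, as are several of the iron-dependent hydroxylases that modify collagen inside the cell.

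Promoter windows are shown because HIF binds DNA at the core letters ACGTG or GCGTG and DP was the treatment. RefSeq windows (GRCm38.p6) were matched by symbol, and Loxl4 had an entry, as did 8 of the 10 listed collagen hydroxylases. A window of Lox was not analysed here, and Loxl1, Loxl2 and Loxl3 had no entry. Loxl4 is set beside P4ha2 and Plod1, catalytic subunits of a collagen prolyl 4-hydroxylase and a lysyl hydroxylase. They were picked after their values were seen, because under DP P4ha2 rose in both genotypes and Plod1 in WT cells. Plod2, which rose in both genotypes, and P3h2 had no entry. Each window holds the 250 bases before the start, on the gene's strand: chr19:42612807-42613056 (minus strand) for Loxl4, chr11:54100674-54100923 (plus strand) for P4ha2 and chr4:147936777-147937026 (minus strand) for Plod1. Capitals mark either core, read on both strands, so that CACGT and CACGC are the cores of the other strand.
Loxl4: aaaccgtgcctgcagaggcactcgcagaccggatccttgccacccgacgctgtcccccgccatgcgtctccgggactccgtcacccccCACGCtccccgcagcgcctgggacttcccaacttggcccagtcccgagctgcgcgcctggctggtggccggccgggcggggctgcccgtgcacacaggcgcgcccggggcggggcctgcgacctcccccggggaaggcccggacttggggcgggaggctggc
P4ha2: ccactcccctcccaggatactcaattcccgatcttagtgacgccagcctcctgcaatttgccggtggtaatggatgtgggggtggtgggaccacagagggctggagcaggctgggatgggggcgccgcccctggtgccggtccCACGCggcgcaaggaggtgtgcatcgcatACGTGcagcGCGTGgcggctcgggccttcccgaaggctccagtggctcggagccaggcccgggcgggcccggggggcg
Plod1: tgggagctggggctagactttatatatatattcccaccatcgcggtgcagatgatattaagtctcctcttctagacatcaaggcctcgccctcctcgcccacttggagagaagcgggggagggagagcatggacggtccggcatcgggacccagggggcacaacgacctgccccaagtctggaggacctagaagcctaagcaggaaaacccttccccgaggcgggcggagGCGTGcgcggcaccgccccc
Loxl4 held 1 core, whose first base lay at position -162 from the start. P4ha2 held 3, at -107, -78 and -69, and Plod1 held 1, at -20. Of the hydroxylases not shown, Plod3 held 4 cores, P4ha1 held 3, P4hb held 2, P3h1 held 2 in each of its 2 windows, and P4ha3 and P3h3 held 0. Plod3, P4hb and P3h1 did not pass under DP, apart from P4hb in WT cells with array weights. A core of this kind stood in 38.6% of all 32851 RefSeq windows of this length, and a match is a description of letters, not a binding site.

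The genotype comparison asked how the family's RNA levels differ in cells without CBP and p300. In both treatments 4 of the 5 genes, Lox, Loxl1, Loxl2 and Loxl3, fell in dKO cells, at their brightest probe sets to between 28.2% and 45.0% of the WT level, and Loxl4 did not pass the test. In ethanol 6 of the 9 probe sets fell and 0 rose (limma adjusted p under 0.05 over 28898 probe sets), where 12.6% of all probe sets were called lower. Under DP 7 of 9 fell and 0 rose, where 15.3% were called lower. The median change over the 5 brightest probe sets was -1.36 log2 in ethanol and -1.21 under DP, and over all genes it was -0.01 in both. The 3 dKO arrays lay below all 3 WT arrays for 7 of the 9 probe sets in each treatment, as did 17.6% of all probe sets in ethanol and 23.9% under DP.

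Lox encodes the founding member of the family. Its brightest probe set, 1416121_PM_at, had 11.69, 11.76 and 11.20 log2 in dKO lines 1, 5 and 6 under DP and 10.69, 11.61 and 10.88 log2 in the same lines in ethanol. It had 12.66, 12.72 and 12.73 log2 in WT lines 3, 4 and 5 under DP and 12.60, 12.48 and 12.19 log2 in ethanol. Every dKO array lay below every WT array, and the dKO lines were spread more widely (SD 0.30 under DP and 0.49 in ethanol) than the WT lines (SD 0.04 and 0.21). Lox fell in dKO cells by -1.36 ± 0.21 log2 in ethanol (adjusted p = 0.000322) and by -1.15 ± 0.21 under DP (adjusted p = 0.00111), the values after ± being the moderated SE with 3 arrays per group.

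A second Lox probe set, 1448228_PM_at, gave the same order of genotypes. Its group means were 10.42 ± 0.43 log2 in dKO cells under DP, 9.97 ± 0.39 in dKO cells in ethanol, 12.03 ± 0.05 in WT cells under DP and 11.64 ± 0.18 in WT cells in ethanol (SD, n = 3 each). The differences were -1.67 ± 0.21 log2 in ethanol and -1.61 ± 0.21 under DP (adjusted p = 6.28e-05 and 7.82e-05). The third, 1437903_PM_at, exceeded the blank controls of its own array on 3 of 12 arrays, all from WT cells, so its change may be understated. It differed by -0.58 ± 0.27 in ethanol (adjusted p = 0.131) and fell by -0.89 ± 0.27 under DP (adjusted p = 0.0228), a call that was lost when dKO line 5 or 6 or WT line 4 or 5 under DP was left out (adjusted p of 0.0594 to 0.107).

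Loxl1, the member most tied to elastic fibres, had 9.97, 10.03 and 9.90 log2 in dKO lines 1, 5 and 6 under DP and 10.41, 10.10 and 10.04 in ethanol at 1451978_PM_at. WT lines 3, 4 and 5 had 11.23, 11.40 and 11.43 log2 under DP and 11.44, 11.45 and 11.50 in ethanol. The genotypes were separated on every array, and the WT ethanol arrays were the tightest group (SD 0.03). Loxl1 fell by -1.28 ± 0.11 log2 in ethanol and -1.39 ± 0.11 under DP (adjusted p = 2.46e-06 and 1.18e-06). Its dimmer probe set, 1436063_PM_at, changed further, by -1.86 ± 0.12 and -1.75 ± 0.12 (adjusted p = 3.09e-07 and 4.37e-07).

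Loxl2, which also oxidises collagen IV of basement membranes, had 9.13, 9.17 and 8.89 log2 in dKO lines 1, 5 and 6 under DP and 8.80, 8.65 and 8.46 in ethanol. WT lines 3, 4 and 5 had 10.31, 10.42 and 10.10 log2 under DP and 9.90, 10.17 and 10.19 in ethanol. The lowest WT array was above the highest dKO array. Loxl2 fell by -1.45 ± 0.13 log2 in ethanol and -1.21 ± 0.13 under DP (adjusted p = 3.83e-06 and 1.41e-05).

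Loxl3, a member needed in mice for palate and spine formation, had 8.88, 9.05 and 8.63 log2 in dKO lines 1, 5 and 6 under DP and 9.33, 8.97 and 8.77 in ethanol. WT lines 3, 4 and 5 had 10.62, 10.73 and 10.69 log2 under DP and 10.65, 10.75 and 10.92 in ethanol. Of the members read at their brightest probe sets, Loxl3 had the largest genotype difference in both treatments, -1.75 ± 0.15 log2 in ethanol and -1.83 ± 0.15 under DP (adjusted p = 2.15e-06 and 1.38e-06). Of all probe sets, 1.7% and 1.71% had a change as low.

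Loxl4, which shares the domain layout of Loxl2 and Loxl3, showed no such separation. Its brighter probe set, 1421153_PM_at, had 6.63, 6.60 and 6.69 log2 in dKO lines 1, 5 and 6 under DP and 7.05, 6.65 and 7.01 in ethanol. WT lines 3, 4 and 5 had 6.67, 6.82 and 6.41 log2 under DP and 6.55, 6.57 and 6.66 in ethanol, and the genotypes overlapped in both treatments. The differences were 0.31 ± 0.13 log2 in ethanol (95% interval 0.03 to 0.58, adjusted p = 0.0904) and 0.01 ± 0.13 under DP (-0.27 to 0.28, adjusted p = 0.982). The ethanol difference passed with array weights (0.39, adjusted p = 0.0132) and without dKO line 5 in ethanol (0.43, adjusted p = 0.0198). The second probe set, 1450134_PM_at, differed by 0.19 ± 0.13 and -0.23 ± 0.13 (adjusted p = 0.325 and 0.203).

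**Figure D1:**
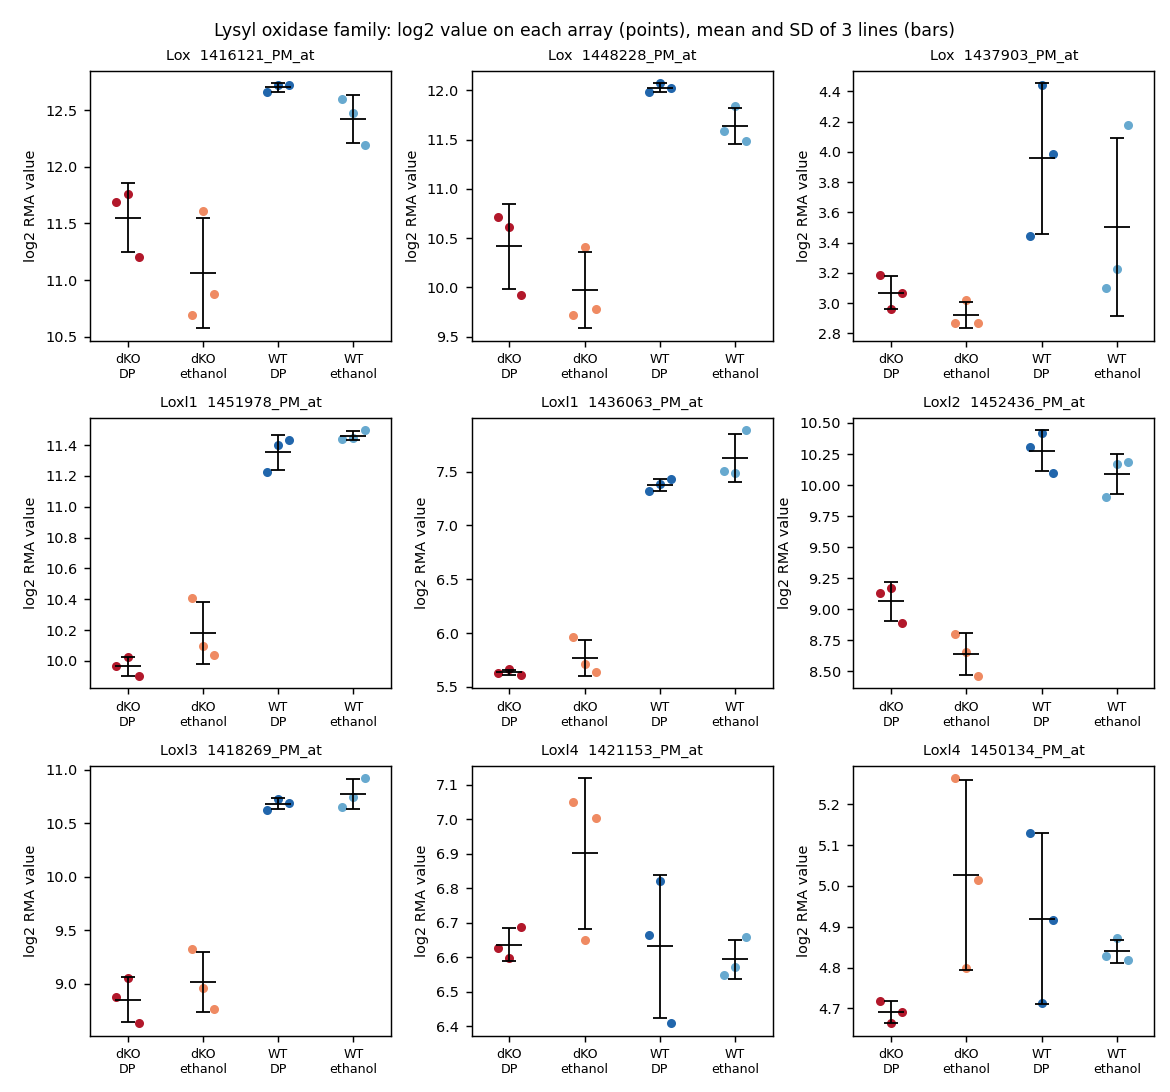
Log2 values of the 9 lysyl oxidase family probe sets (vertical axis, with its own range in each panel) on each array, as points for the lines in ascending number from left to right, with the mean and SD of 3 lines. The dKO groups stand left of the WT groups and lie below them for Lox, Loxl1, Loxl2 and Loxl3, whereas the groups overlap in both treatments for Loxl4.

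The order of the 4 group means differed between members. For both bright Lox probe sets and for Loxl2 the order was WT under DP, WT in ethanol, dKO under DP and dKO in ethanol, from high to low. The 2 WT groups overlapped for Loxl2 but not for Lox, and the 2 dKO groups overlapped for Lox but not for Loxl2. For Loxl1 and Loxl3 the order was WT in ethanol, WT under DP, dKO in ethanol and dKO under DP. The 2 groups of each genotype overlapped for Loxl3, and at the brighter Loxl1 probe set neighbouring groups did not overlap. At both Loxl4 probe sets the dKO ethanol mean was the highest, and each group overlapped the next in order except that WT in ethanol lay above dKO under DP at 1450134_PM_at. The share of all probe sets whose DP and ethanol groups did not overlap is not given here or below. The family's DP effects did not pass the test, so these separations are description only.

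Fibroblast markers were lower together with the family. Of 10 fibroblast markers 9 fell in dKO cells in both treatments, where 13.6% of all genes were called lower in ethanol and 16.4% under DP, with a median of -1.92 log2 in ethanol and -1.95 under DP. Their mean level lay between 7.15 and 7.62 log2 on dKO and 9.24 and 9.47 on WT arrays under DP, and between 7.21 and 7.69 on dKO and 9.21 and 9.37 on WT arrays in ethanol. Dcn and Lum, small proteoglycans of the collagen matrix, changed by -3.73 ± 0.29 and -3.53 ± 0.33 in ethanol (adjusted p = 1.31e-06 and 4.83e-06). Twist1, a mesenchymal transcription factor, did not pass (-0.19 ± 0.12, adjusted p = 0.286), and Vim, the mesenchymal filament protein, fell by -0.64 ± 0.09 in ethanol (adjusted p = 9.22e-05). All 6 measured smooth muscle markers fell, with a median of -1.55 in ethanol and -1.65 under DP. In these bulk samples fewer cells of a type and less RNA per cell cannot be told apart, and the part of these markers in the family's result was not tested.

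Of the markers of other cell types few rose in dKO cells, where 18.9% of all genes were called higher in ethanol and 18% under DP. Several fell, where 13.6% of all genes were called lower in ethanol and 16.4% under DP. The falls were thus not confined to the fibroblast and smooth muscle lists. Of the 8 endothelial markers 1 rose and 0 fell in ethanol, and 0 rose and 2 fell under DP. Of the 8 macrophage markers 1 rose in each treatment, and 4 fell in ethanol and 5 under DP. Among the epithelial, cartilage and bone, adipocyte, neural and skeletal muscle markers 0 rose (limma), and 1 to 5 of each list fell. The endothelial list averaged 3.26 to 3.47 log2 on dKO and 3.34 to 3.57 on WT arrays, near the blank controls.

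Beta-actin's 3' signal exceeded its 5' signal, a gap that widens as RNA breaks down, by 0.40 to 0.60 log2 on dKO arrays and by 0.23 to 0.38 log2 on WT arrays. This 3' excess did not overlap between genotypes, so the shares of the 2 in the changes cannot be told apart. It was also higher under DP than in ethanol within each genotype, without overlap. On dKO arrays it was 0.48 to 0.60 against 0.40 to 0.45, and on WT arrays 0.28 to 0.38 against 0.23 to 0.25. The same gap for Gapdh overlapped between genotypes, at 0.10 to 0.21 on dKO and -0.03 to 0.17 on WT arrays. With the beta-actin excess as a covariate, added after the data were seen, 4 family probe sets fell in ethanol and 3 under DP. Those in ethanol were of Loxl1, Loxl2 and Loxl3, and those under DP of Loxl1 and Loxl3. Lox was then at -0.91 log2 in ethanol and -0.68 under DP at its brightest probe set (adjusted p = 0.345 and 0.547). Loxl2 was at -0.74 under DP (adjusted p = 0.151). With the covariate 2.16% of all genes were called lower in ethanol and 2.48% under DP. Crebbp, at -0.96 and -0.87, did not pass either (adjusted p = 0.172 and 0.254). Of the 10 fibroblast markers 4 then fell in ethanol and 5 under DP, with medians of -1.31 and -1.48. Of the 6 smooth muscle markers 0 fell in either treatment, with medians of -0.81 in both. Without the 2 ethanol arrays that stood apart, the family counts were 6 and 7 as before, with Lox at -1.29 and Loxl3 at -1.83 in ethanol.

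The treatment comparison asked whether the family responds to DP within 3 h. In dKO cells 0 of the 9 family probe sets passed the test (limma; 3 had an unadjusted p under 0.05), where 1.14% of all probe sets were called. In WT cells 0 of 9 passed and 0 had an unadjusted p under 0.05, where 3.71% of all probe sets were called. The median change over the 5 brightest probe sets was -0.17 log2 in dKO cells and 0.04 in WT cells, against -0.05 and -0.03 over all genes. Both genotype comparisons and both DP effects use the same 4 groups, so they are not independent of each other.

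Lox and Loxl2 had the highest DP differences. At its brightest probe set Lox differed by 1.00, 0.15 and 0.32 log2 in dKO lines 1, 5 and 6, and by 0.06, 0.24 and 0.53 log2 in WT lines 3, 4 and 5. At this probe set all 6 lines were higher under DP, but the size varied several-fold between lines of the same genotype. The largest value came from dKO line 1, whose ethanol array stood apart. The fitted differences were 0.49 ± 0.21 in dKO cells (95% interval 0.02 to 0.95, adjusted p = 0.362) and 0.28 ± 0.21 in WT cells (-0.18 to 0.74, adjusted p = 0.661). Without the 2 ethanol arrays that stood apart the difference in dKO cells was 0.30 (adjusted p = 0.60). At 1448228_PM_at Lox differed by 1.00, 0.20 and 0.14 log2 in the same dKO lines and by 0.40, 0.23 and 0.54 in the WT lines. The fitted differences there were 0.45 ± 0.21 in dKO and 0.39 ± 0.21 in WT cells (limma adjusted p = 0.397 and 0.492). The dim 1437903_PM_at differed by 0.15 ± 0.27 and 0.45 ± 0.27 (limma adjusted p = 0.845 and 0.532).

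Loxl2 differed by 0.33, 0.52 and 0.42 log2 in dKO lines 1, 5 and 6, and by 0.41, 0.25 and -0.09 log2 in WT lines 3, 4 and 5. All 3 dKO lines were higher under DP, and the dKO groups did not overlap, whereas the WT groups overlapped. The fitted differences were 0.42 ± 0.13 in dKO cells (95% interval 0.14 to 0.71, adjusted p = 0.195) and 0.19 ± 0.13 in WT cells (-0.09 to 0.47, adjusted p = 0.611). With array weights, which give less weight to arrays that fit poorly, Lox at 0.61 and Loxl2 at 0.57 passed in dKO cells (adjusted p = 0.042 and 0.00839).

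Loxl1 and Loxl3 had small differences below 0. Loxl1 differed by -0.22 ± 0.11 log2 in dKO cells and -0.11 ± 0.11 in WT cells at its brighter probe set (adjusted p = 0.417 and 0.759). At its dimmer probe set it differed by -0.14 ± 0.12 and -0.25 ± 0.12 (limma adjusted p = 0.648 and 0.41). Loxl3 differed by -0.17 ± 0.15 in dKO cells and -0.09 ± 0.15 in WT cells (adjusted p = 0.653 and 0.861). Loxl4 differed by -0.26 ± 0.13 and -0.34 ± 0.13 at its 2 probe sets in dKO cells, with all 3 lines lower under DP, and by 0.04 ± 0.13 and 0.08 ± 0.13 in WT cells (adjusted p of 0.305 and above).

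A test of the dKO effect of DP minus its WT effect passed for 0 of 9 probe sets (limma; 1 had an unadjusted p under 0.05), where 0.401% of all probe sets were called. This difference was 0.21 log2 for Lox (95% interval -0.45 to 0.87) and 0.23 for Loxl2 (-0.17 to 0.63). The 1 probe set with an unadjusted p under 0.05 was 1450134_PM_at of Loxl4, at -0.42 (95% interval -0.81 to -0.02, adjusted p = 0.806). These intervals leave room for differences of either sign for Lox and Loxl2.

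**Figure D2:**
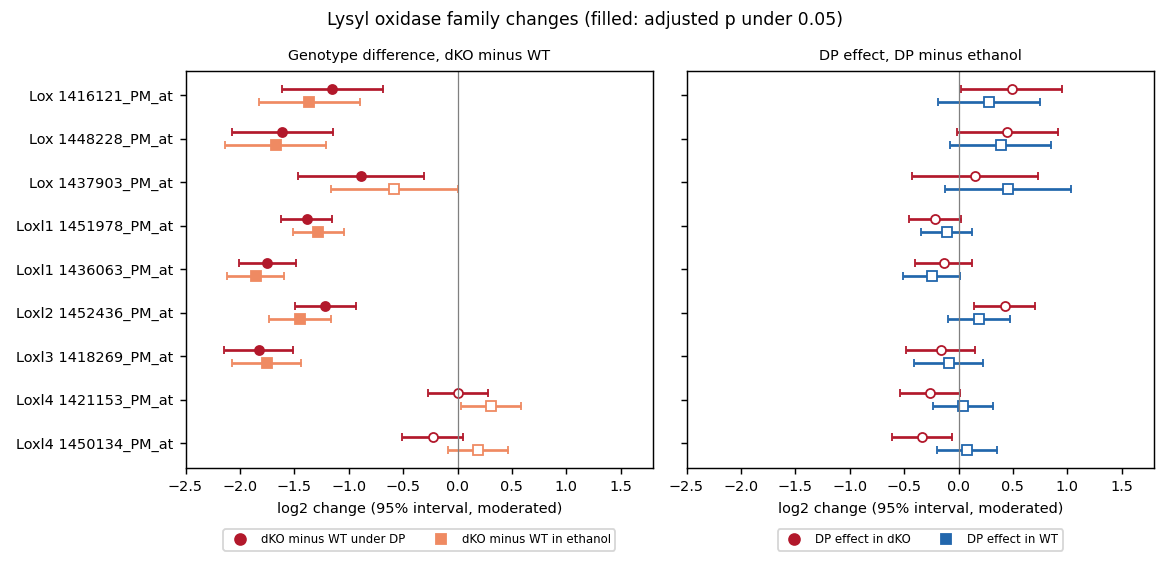
Log2 changes of the 9 family probe sets with 95% moderated intervals (horizontal axis), dKO minus WT in the left panel and DP minus ethanol in the right panel, filled where the adjusted p was under 0.05. The intervals of Loxl1, Loxl2 and Loxl3 and of the bright Lox probe sets lie below 0 for genotype, and the DP effects lie between -0.34 and 0.49 with 0 filled points.

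Collagen hydroxylases modify lysines and prolines of collagen before secretion, and 9 of 10 listed genes were measured. Of these 2 rose under DP in dKO cells and 3 in WT cells, where 0.953% and 2.89% of all genes were called higher. Plod2, the telopeptide lysyl hydroxylase, had 10.74, 10.92 and 10.78 log2 in dKO lines 1, 5 and 6 under DP against 9.27, 9.86 and 9.65 in ethanol. In WT lines 3, 4 and 5 it had 10.97, 11.06 and 10.98 log2 under DP against 9.56, 10.01 and 9.37 in ethanol. The groups did not overlap in either genotype, and Plod2 rose by 1.22 ± 0.17 in dKO cells and 1.36 ± 0.17 in WT cells (adjusted p = 0.00154 and 0.000278).

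P4ha2 rose by 0.88 ± 0.11 in dKO cells and 0.48 ± 0.11 in WT cells (adjusted p = 0.00096 and 0.0346). The WT call was lost in the fit on the compared arrays alone (adjusted p = 0.0832), with median centring (adjusted p = 0.051) and with the beta-actin covariate (adjusted p = 0.451). It was also lost without dKO line 1 or 5 under DP, any WT line under DP, or WT line 3 or 4 in ethanol (adjusted p of 0.0511 to 0.153). Plod1 rose by 0.92 ± 0.15 in WT cells (adjusted p = 0.00273). In dKO cells it differed by 0.49 ± 0.15 (adjusted p = 0.18). It passed there without the 2 ethanol arrays that stood apart (0.58, adjusted p = 0.0147) and with array weights (0.55, adjusted p = 0.00586). The dKO effect of DP minus the WT effect passed for 0 of the 9 measured hydroxylases (limma). The other 6 measured hydroxylases, P4ha3, P4hb, Plod3, P3h1, P3h2 and P3h3, did not pass and lay between -0.21 and 0.24 in both genotypes. With array weights P4hb passed in WT cells (0.31, adjusted p = 0.0406). Of the 8 HIF response reference genes 7 rose in dKO cells, by 1.25 to 4.20 log2, and 8 in WT cells, by 1.14 to 4.86. The shares of all genes called higher were 0.953% and 2.89%. Car9 was the 1 that did not pass in dKO cells (0.18 ± 0.22, adjusted p = 0.76). Its WT call was lost without WT line 5 under DP (adjusted p = 0.0556) and with the beta-actin covariate (adjusted p = 0.208). Its dKO effect minus its WT effect was -0.96 ± 0.31 and did not pass (limma adjusted p = 0.509). That difference passed with array weights (-1.17, adjusted p = 0.00898) and without the 2 ethanol arrays that stood apart (-1.18, adjusted p = 0.0075).

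**Figure D3:**
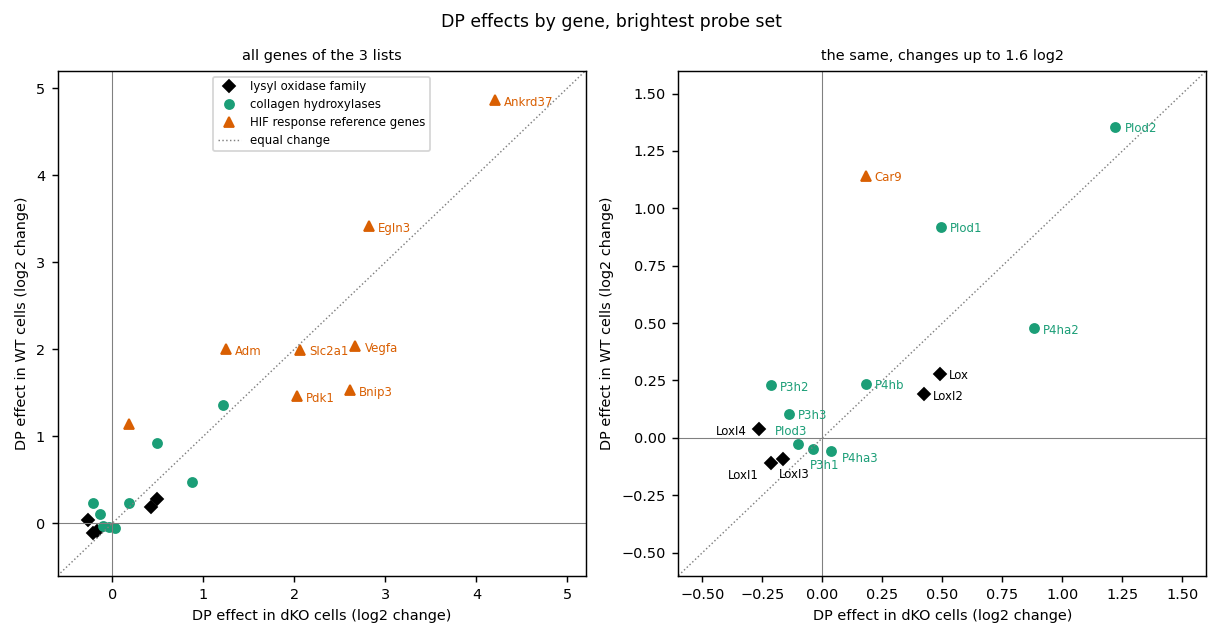
DP effect in dKO cells (horizontal axis, log2) against that in WT cells (vertical axis, log2) for the family, the collagen hydroxylases and the HIF response reference genes, each gene at its brightest probe set, with the range up to 1.6 enlarged on the right. The 5 family genes sit between -0.26 and 0.49 in dKO cells and between -0.11 and 0.28 in WT cells, below Plod2 on both axes.

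The genotype difference extended to the family's substrates. Of 17 collagens of fibrils and basement membranes 11 fell in dKO cells in each treatment and 1 rose, against the shares of all genes given above for the markers. Col5a3, a chain of fibril-initiating collagen V, fell by -4.07 ± 0.18 log2 in ethanol and -4.28 ± 0.18 under DP (adjusted p = 1.88e-08 and 1.12e-08). Col1a1, the main chain of collagen I, fell by -1.68 ± 0.14 in each treatment (adjusted p = 2.73e-06 and 2.39e-06). Col1a2 was read by a dim probe set, so its change may be understated. The gene that rose, named after its value was seen, was Col4a5 of basement membranes, at 0.59 ± 0.14 in ethanol and 0.58 ± 0.14 under DP (adjusted p = 0.00483 and 0.00547). With the beta-actin covariate 4 collagens fell in each treatment, Col5a3 and Col1a1 among them, and 0 rose (limma). Among all genes 2.16% were then called lower in ethanol and 2.48% under DP.

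Of 14 measured elastic fibre genes 11 fell in both treatments, with medians of -1.22 log2 in ethanol and -1.44 under DP. The shares of all genes were 13.6% and 16.4% called lower, and 18.9% and 18% called higher. Mfap5, a microfibril glycoprotein, fell by -2.31 ± 0.21 in ethanol and -2.43 ± 0.21 under DP (adjusted p = 3.78e-06 and 2.26e-06). Fbn2, fibrillin 2 of microfibrils, fell by -2.24 ± 0.25 and -2.25 ± 0.25 (adjusted p = 1.99e-05 and 1.75e-05). With the beta-actin covariate 3 of the 14 fell in each treatment, where 2.16% of all genes were called lower in ethanol and 2.48% under DP. Mfap5 kept its call, and Fbn2 did not (-1.31, adjusted p = 0.147, in ethanol and -1.29, adjusted p = 0.181, under DP). The 1 that rose, named after its value was seen, was Ltbp3, which binds latent TGF-beta, at 1.20 ± 0.13 and 1.12 ± 0.13 (adjusted p = 1.39e-05 and 2.3e-05).

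Of 9 measured genes that activate or accompany lysyl oxidases 7 fell in both treatments, with medians of -1.51 log2 in ethanol and -1.66 under DP. The shares of all genes called lower were 13.6% and 16.4%. Pcolce2, an enhancer of procollagen C-proteinase, fell by -3.69 ± 0.21 in ethanol and -3.90 ± 0.21 under DP (adjusted p = 1.26e-07 and 8.73e-08). Postn, the matrix protein periostin that supports Lox activation by Bmp1 in mouse tissue, fell by -2.28 ± 0.33 and -1.94 ± 0.33 (adjusted p = 0.000173 and 0.000569). Tll1, a Bmp1-type proteinase, fell by -1.87 ± 0.28 and -2.06 ± 0.28 (adjusted p = 0.000231 and 0.000102). With the beta-actin covariate 2 of the 9 fell in ethanol and 1 under DP, where 2.16% and 2.48% of all genes were called lower. Pcolce2 kept its call. Postn was then at -1.46 and -1.09 (adjusted p = 0.308 and 0.515) and Tll1 at -0.83 and -0.98 (adjusted p = 0.486 and 0.42).

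Among the genes that act on collagen inside the cell, 5 of 9 measured hydroxylases fell in ethanol and 6 under DP. Their medians were -0.50 and -0.60 log2, and 13.6% and 16.4% of all genes were called lower. P4ha3, a catalytic prolyl 4-hydroxylase subunit, fell by -2.04 ± 0.12 in ethanol and -1.95 ± 0.12 under DP (adjusted p = 1.1e-07 and 1.42e-07), whereas Plod2 was at -0.05 ± 0.17 and -0.19 ± 0.17 (adjusted p = 0.853 and 0.437). Of 9 other folding and modification genes 4 fell in ethanol and 5 under DP. In each treatment 1 rose, where 18.9% and 18% of all genes were called higher. With the beta-actin covariate 0 of these 9 fell in ethanol and 1 under DP, with medians of -0.06 and -0.12, and 1 rose in each. Among all genes 2.16% and 2.48% were then called lower, and 3.54% and 2.72% higher. The fibroblast and smooth muscle markers above moved with all these lists, Col1a1 and Col1a2 stand on the fibroblast list too, and the markers' part was not tested.

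**Figure D4:**
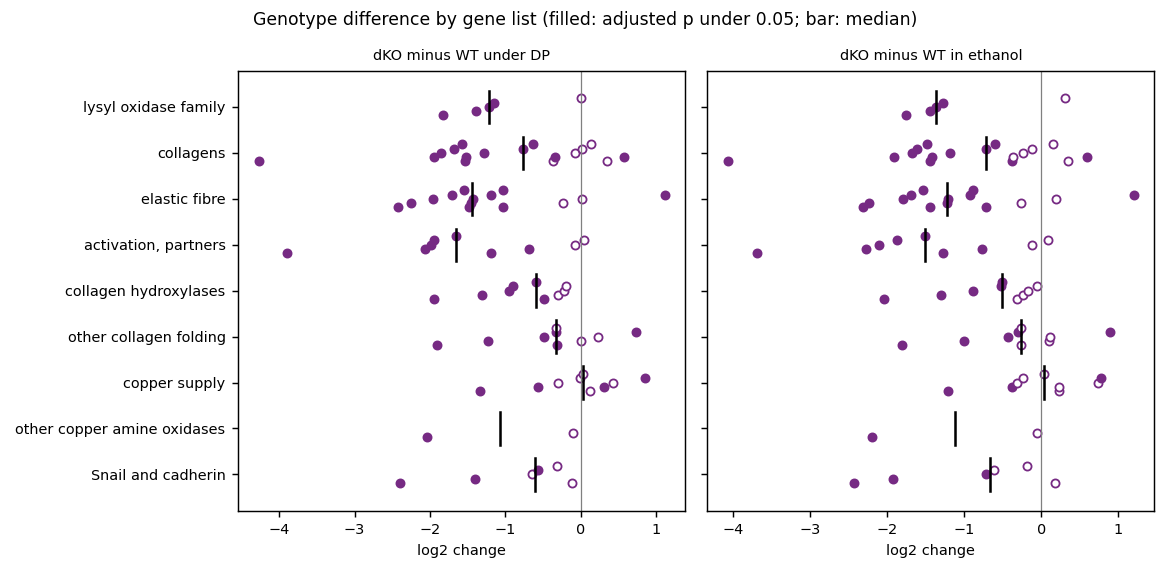
Log2 difference dKO minus WT of each measured gene (horizontal axis) by gene list (rows), under DP on the left and in ethanol on the right, with points filled where the adjusted p was under 0.05, bars at list medians and points offset vertically so that they can be seen. The family median lies at -1.21 under DP and -1.36 in ethanol, and that of copper supply genes at 0.03 and 0.04.

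The genes whose levels followed each member most closely were taken as the 3 highest Pearson correlations over the 12 arrays, among 8916 other genes whose mean was 5 log2 or more. For Lox these were Postn (r = 0.993), the transcription factor gene Bcl11b (0.990) and the phospholipase gene Pla2g4a (0.986). For Loxl1 they were Dap (0.998), Crip1 (0.995) and Nsdhl (0.995), and for Loxl3 Lsp1 (0.999), Pcolce (0.998) and Prep (0.998). For Loxl2 they were the translation inhibitor gene Eif4ebp1 (0.987), Vasn (0.977) and the collagen V chain gene Col5a2 (0.977). All these points share the separation of the genotypes. For Loxl4, whose groups overlapped, the highest values were lower: Hars at 0.911, Tnpo2 at 0.898 and Xylb at 0.865.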

How the data were processed

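RNA of 12 MEF cultures was measured on Affymetrix mouse arrays. The deposited values are log2 probe set summaries that, per the submitters' processing notes, the authors computed by RMA (Affymetrix Expression Console 1.1). This step subtracts background, equalises the arrays and fits 1 value per set of probes, so small changes of dim probe sets are compressed. The number of arrays limits the precision, and raw scans were not analysed here.

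From the 45141 probe sets, 104 controls, 551 listed with more than 1 symbol and 15588 without a symbol were dropped, which left 28898. Symbols of 28689 were updated through the gene identifier to the RefSeq table (GRCm38.p6) and 209 kept as listed. Lists were read at the probe set of each gene with the highest mean over all arrays. P4ha1, Fbn1 and a few other listed genes were not analysed here.

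Tests used limma 3.58.1 in R 4.3.3 (lmFit and eBayes, 1 mean per group, 12 arrays, no block), with Benjamini-Hochberg adjustment over 28898 probe sets for each of 5 contrasts and a call at 0.05. The code was tested on simulated data: for the DP effect in dKO cells over 28898 probe sets, 86 of 100 changes of 1 log2 and 100 of 100 of 2 log2 were recovered. Intervals are at 95% from moderated standard errors. Figures used matplotlib 3.10.9 in Python 3.11.15.

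The labels pair the arrays, since the same numbered MEF line was given both treatments. As a check over 8917 genes, the correlation between a line's 2 arrays after subtracting group means was 0.04 for dKO line 1, 0.32 for dKO line 5, 0.36 for dKO line 6, 0.42 for WT line 3, 0.06 for WT line 4 and 0.33 for WT line 5.

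The members and the gene lists were chosen with earlier results of these data known. Named were all family probe sets, collagen hydroxylases and HIF response reference genes as needed, up to 4 called members per other list and contrast (or 2 of largest change), Crebbp, and the 3 genes most like each member. Alternatives were the line as a block, array weights, an intensity trend, robust eBayes, median centring, cyclic loess, a filter on the dimmest 40% of probe sets, 1 or the mean probe set per gene, a fit on the compared arrays alone, a minimum fold of 1.5, leaving out each array or the 2 that stood apart, and, added after the data were seen, the beta-actin covariate.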

Additional observations from a re-analysis of the deposited data

How the results depend on the processing

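Of 248 recomputed counts for the family and the collagen hydroxylases, 239 stayed within 1.5 times their main value and 9 moved. Of 7742 recomputed single changes 7562 kept their side of the threshold, and 0 called changes turned their sign. Array weights gave 2 family probe sets with a DP effect in dKO cells, against 0. Under DP the family's genotype count of 7 probe sets became 4 with the brightest or the mean probe set per gene, where only 5 values are tested. The beta-actin covariate, which separates the genotypes and also DP from ethanol within each, gave 3 there. With it the hydroxylase counts were 0 for the DP effect in dKO cells (2 without it), 1 in WT cells (3), although the changes themselves hardly moved (Plod2 1.25 and P4ha2 0.83 in dKO cells, Plod1 0.93 and P4ha2 0.43 in WT cells), and 2 for genotype in ethanol (5) and 1 under DP (6). A fold minimum of 1.5 gave 3 hydroxylases in ethanol. Leaving out 1 array gave 6 to 7 family probe sets called in either direction for genotype in each treatment and 0 for each DP effect. Without dKO line 5 in ethanol those called in ethanol include a Loxl4 probe set that rose (0.43, adjusted p = 0.0198). With the line as a replicate block (paired DP effects) the family counts were 6 and 7 for genotype and 0 for the DP effects and their difference, and the block changed no call of a family probe set. The simulation held no changes under 1 log2, so the chance of calling a DP effect of the size seen for Lox and Loxl2 with 3 arrays per group is not known.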

Other observations

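Genes of copper supply were called in both directions. Of 9 measured 2 fell in dKO cells in each treatment, and 1 rose in ethanol and 2 under DP, with medians of 0.04 and 0.03 log2, where 13.6% and 16.4% of all genes were called lower and 18.9% and 18% higher. With the beta-actin covariate 0 were called. Steap2, a metalloreductase, fell by -1.20 ± 0.12 in ethanol and -1.34 ± 0.12 under DP, and Slc31a2, a copper transporter, rose by 0.77 ± 0.13 and 0.86 ± 0.13 (limma adjusted p = 9.29e-06, 3.57e-06, 0.000453 and 0.000191). Atp7a, the pump that loads copper onto lysyl oxidases, differed by 0.80 ± 0.32 under DP in dKO cells and 1.11 ± 0.32 in WT cells (adjusted p = 0.329 and 0.0975). The WT difference passed with array weights (0.87, adjusted p = 0.0123), on the compared arrays alone (adjusted p = 0.0431), without the 2 arrays that stood apart (0.80, adjusted p = 0.00199) and without dKO line 1 in ethanol (adjusted p = 0.00752). Of the other copper amine oxidases Aoc3, a vascular adhesion protein, fell in dKO cells by -2.19 ± 0.32 in ethanol and -2.04 ± 0.32 under DP (adjusted p = 0.000183 and 0.000318), and did not pass with the beta-actin covariate (-1.50 and -1.31, adjusted p = 0.282 and 0.397).

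Of 6 genes of the Snail and cadherin list, whose human proteins include partners of LOXL2 and LOXL3, 3 fell in dKO cells in both treatments. Among all genes 13.6% were called lower in ethanol and 16.4% under DP. Snai1 fell by -1.93 ± 0.12 in ethanol and -2.40 ± 0.12 under DP, and Snai2 by -2.43 ± 0.18 and -1.40 ± 0.18 (adjusted p = 2.12e-07, 5.03e-08, 8.81e-07 and 6.55e-05). Snai2 fell under DP in WT cells by -1.33 ± 0.18 (adjusted p = 0.00066) and differed by -0.30 ± 0.18 in dKO cells (adjusted p = 0.498). Its dKO effect of DP minus its WT effect was 1.04 ± 0.26 and did not pass (limma adjusted p = 0.205). With array weights it passed (1.27, adjusted p = 0.00524). Among the collagens, Col27a1, a fibrillar collagen, rose under DP in WT cells by 0.63 ± 0.12 (adjusted p = 0.00754) and differed by 0.31 ± 0.12 in dKO cells (adjusted p = 0.305). The dKO difference passed with array weights (0.46, adjusted p = 0.0226). For Col27a1 the dKO effect minus the WT effect was -0.32 ± 0.17 and did not pass (limma adjusted p = 0.898). With the beta-actin covariate Snai2 under DP in dKO against WT cells and Col27a1 in WT cells hardly moved but did not pass (-1.44 and 0.63, adjusted p = 0.0835 and 0.155).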
